A study of Homo sapiens with 18 samples.

Results

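The H/ACA box small nucleolar RNAs (snoRNAs) of the human leukaemia lines HL-60 and MOLM-13 were followed through treatment with DNA methyltransferase inhibitors. Members were all genes annotated as snoRNA in the deposited tables with a symbol beginning SNORA, taken from each line's own files. There were 140 among the 17110 genes listed for HL-60 and 126 among the 17475 listed for MOLM-13. Of the 141 members listed in either line, 125 were in both, 15 in HL-60 alone and 1, SNORA79, in MOLM-13 alone. The 15 had mean log2 values from 2.08 (SNORA119) to 4.69 (SNORA91), near the lower end of the scale.

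HL-60 is a promyelocytic line and MOLM-13 a monocytic one. Cells of each line were grown for 48 h with the solvent DMSO, with decitabine (DAC), a cytidine analogue that traps DNA methyltransferases, or with NTX-301, a nucleoside analogue given for the same target class. The labels state a dose for HL-60 (30 nM) and another for MOLM-13 (15 nM), and do not say whether both drugs or DAC alone had these doses, so line and dose cannot be told apart. The 6 groups, DMSO, DAC and NTX-301 in each line, held 3 replicates each, 18 samples in all. No gene was altered by design, and the groups of a line differed only in what was added to the medium. The labels call the replicates triplicates without saying whether they were separate cultures, so p-values measure the spread between these samples, which may be technical. Total RNA was purified with an RNeasy column and sequenced after stranded total RNA library preparation.

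H/ACA snoRNAs are short RNAs that fold into a pair of hairpins, joined by a hinge that holds the H box and followed by a tail that holds the ACA box. With the proteins dyskerin (DKC1), GAR1, NHP2 and NOP10 they form particles in which the RNA pairs with its target and dyskerin turns a uridine of ribosomal or spliceosomal RNA into pseudouridine. A few, such as SNORA73, act in the cleavage of the ribosomal RNA precursor instead. In human cells most are cut out of introns of host genes, many of which encode ribosomal proteins, translation factors or noncoding snoRNA host transcripts (SNHG genes). A read of the host's unspliced RNA that crosses the snoRNA therefore carries the same letters as the snoRNA itself.

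The sequences below belong to 7 of the members on which the results turn, and they show how the RNAs are built. They were read from GENCODE v29 (build GRCh38), lie on the plus strand and run 5′ to 3′. Capitals mark an H box of the form ANANNA that was unpaired in the predicted fold and an ACA triplet 3 bases before the end. By this rule SNORA73B, SNORA48 and SNORA27 have no marked H box and SNORA63 no marked ACA. SNORA73A (chr1:28507366-28507571) and SNORA73B (chr1:28508559-28508762) lie in SNHG3, the latter within introns of every SNHG3 transcript. SNORA63 (chr3:186787300-186787431) lies in EIF4A2, SNORA48 (chr17:7574713-7574847) and SNORA67 (chr17:7577955-7578091) in EIF4A1, SNORA24 (chr4:118279190-118279320) in SNHG8 and SNORA27 (chr13:27255401-27255526) in RPL21. These 5 and SNORA73A overlap an exon of at least 1 annotated host transcript.
SNORA73A: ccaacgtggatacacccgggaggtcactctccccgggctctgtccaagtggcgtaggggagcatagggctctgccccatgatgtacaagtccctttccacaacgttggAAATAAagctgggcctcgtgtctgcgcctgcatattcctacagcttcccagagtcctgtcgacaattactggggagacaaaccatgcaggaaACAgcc
SNORA73B: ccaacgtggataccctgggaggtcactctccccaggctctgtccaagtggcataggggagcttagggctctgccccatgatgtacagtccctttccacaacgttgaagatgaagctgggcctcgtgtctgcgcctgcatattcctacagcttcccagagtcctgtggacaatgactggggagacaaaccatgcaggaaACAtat
SNORA63: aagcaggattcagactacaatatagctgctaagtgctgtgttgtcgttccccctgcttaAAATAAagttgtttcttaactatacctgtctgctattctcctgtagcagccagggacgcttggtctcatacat
SNORA48: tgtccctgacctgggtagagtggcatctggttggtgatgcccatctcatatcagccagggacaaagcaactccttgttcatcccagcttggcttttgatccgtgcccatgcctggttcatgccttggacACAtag
SNORA67: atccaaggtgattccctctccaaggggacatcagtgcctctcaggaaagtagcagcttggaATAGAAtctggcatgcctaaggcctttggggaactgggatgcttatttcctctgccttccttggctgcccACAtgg
SNORA24: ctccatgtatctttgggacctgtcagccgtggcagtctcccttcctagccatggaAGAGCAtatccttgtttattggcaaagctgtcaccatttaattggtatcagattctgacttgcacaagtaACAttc
SNORA27: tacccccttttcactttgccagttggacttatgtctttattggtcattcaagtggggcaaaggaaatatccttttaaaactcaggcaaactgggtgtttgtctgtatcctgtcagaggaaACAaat

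Of the 141 members, 111 were matched to a GENCODE v29 snoRNA, with a median length of 134 bases. The ACA triplet stood 3 bases before the 3′ end in 83 of them (74.8%), against 4 of 275 box C/D snoRNAs (1.45%), the other large snoRNA class. An unpaired H box of the form ANANNA lay in the middle stretch of 65 members (58.6%) and of 31 box C/D snoRNAs (11.3%), which are shorter, with a median of 82 bases. Both boxes were thus found by letters in most but not all of the matched members, and a missing match says only that these letters were not at that place. The SNORA73A and SNORA73B sequences are 93.2% identical, and those of SNORA48 and SNORA67, which share a host, are 62% identical. In all, 46 members had another member at 80% identity or more (38 pairs, SNORA7A and SNORA7B at 98.6%). How the counting split reads between such copies is not given in the sources used here, so the values of near copies are uncertain.

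Few facts of the whole series bear on these values. The deposited values are normalized log2 expression, each line was normalized apart, and read depth is unknown, so precision rests on the replicates. The HL-60 libraries held 7 of 7 granule and lineage genes checked (log2 11.7 to 18.6). MOLM-13 held 6 of 7 genes listed for KMT2A-rearranged monocytic leukaemia, here called monocytic genes (12.04 to 16.77), without CD14. MOLM-13 also held 7 of 7 of the granule and lineage genes (8.51 to 16.92), and HL-60 held 4 of 7 of the monocytic genes (11.64 to 12.34). As a whole neither list was therefore particular to its line, although HOXA9 and MEIS1 of the monocytic genes were listed in MOLM-13 alone. Of the markers of other cell types, HL-60 listed 1 of 3 B cell (6.58) and 1 of 3 epithelial genes (4.66), and none of the T cell, erythroid and fibroblast genes. MOLM-13 listed 3 of 4 erythroid (7.83 to 8.70), 1 of 3 T cell (7.59), 2 of 3 epithelial (5.27 to 9.36) and 1 of 3 fibroblast genes (5.96). Their part in the results was not tested. In these bulk samples fewer cells with an RNA and less of it per cell cannot be told apart.

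H/ACA snoRNAs were low in both lines, and a pair of copies made up much of their total. The median log2 level of members was 5.41 in HL-60 and 5.51 in MOLM-13, against 9.54 and 9.82 over all genes. A mean of at least 5 was reached by 78 HL-60 and 67 MOLM-13 members, and of at least 7 by 46 and 32. SNORA73A and SNORA73B, the RNAs of precursor cleavage, stood at the top in both lines. Per kilobase of RNA the log2 level of SNORA73A was 16.02 in HL-60 and that of SNORA73B 15.29, followed by SNORA24 with 13.43, a guide for small-subunit ribosomal RNA. In MOLM-13 the same 3 led, at 14.10, 14.07 and 12.59 per kilobase. On the linear scale, the SNORA73 pair held 52.1% to 57.9% of the members' sum over the 9 HL-60 libraries, and 37.4% to 41.3% in the other line. All members together held 0.0594% to 0.0752% of the linear sum of a library in HL-60 and 0.0246% to 0.0272% in MOLM-13. Column kits of this type retain short RNA poorly, and the part this played was not tested.

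At the other end, 9 members in each line sat at the floor of the tables, a single set of 9 values near 0 that many of the lowest genes share. They included SNORA17A and SNORA100 in HL-60. SNORA56 and SNORA36A, which lie in DKC1, the gene of the pseudouridine synthase of their own particle, were at the floor in both lines. The 9 floor members of HL-60, just under a linear value of 1, were removed by the minimum on low values and 131 were tested, while all 126 were tested in MOLM-13. A further 19 members of HL-60 and 14 of MOLM-13 lay between the floor and 3, where the deposited values barely move between samples, so a small difference there is no sign of a small change in RNA.

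**Figure D1:**
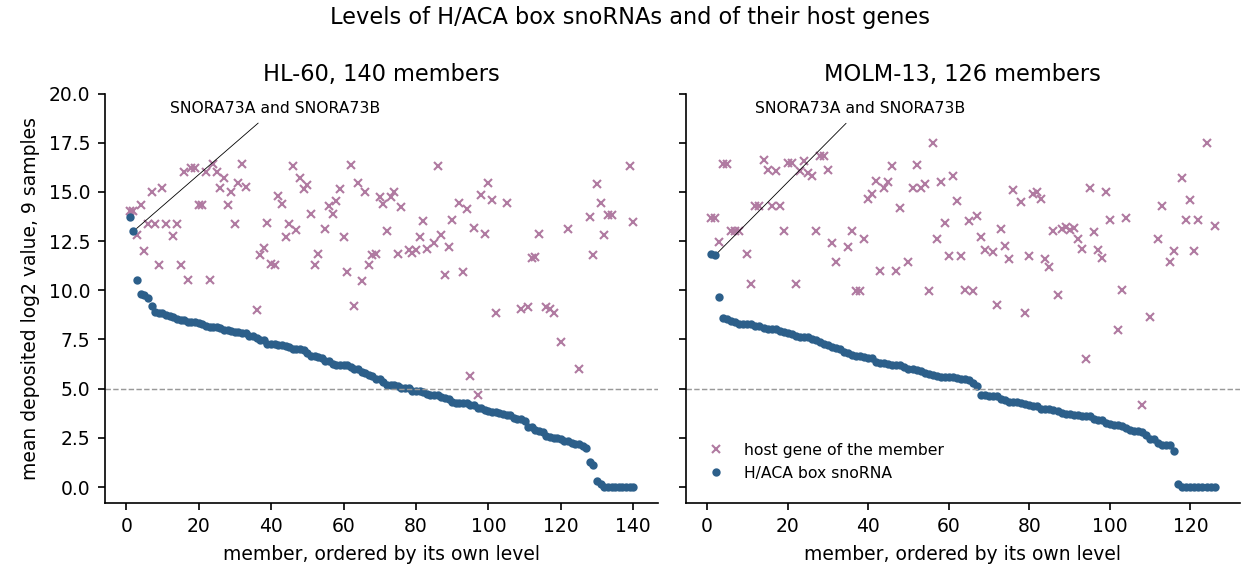
Mean log2 level of every H/ACA member over the 9 samples of each line, ordered by level, with the level of its host gene as a cross and a dashed line at log2 5. SNORA73A (13.75 in HL-60, 11.83 in MOLM-13) and SNORA73B (13.00 and 11.78) lead the members, 9 members in each line lie at the floor, and no member lies above its host.

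Host genes stood far above their snoRNAs in the deposited values. A listed host was found for 116 members in HL-60 and 110 in MOLM-13, in 82 and 79 genes, of which 66 and 65 encode proteins. Ribosomal protein genes held 18 members in either line and SNHG genes 19 and 17. None of the members exceeded its host, and the median member stood 7.18 (HL-60) and 8.16 (MOLM-13) log2 units below it. Neither level was divided by length here, and the part that host length played in this gap was not tested. The richest host was TAF1D, a subunit of the RNA polymerase I selectivity factor, with 6 members. EIF4A2, a translation initiation helicase, and the noncoding SNHG17 had 4 each. By GENCODE v29, 66 members lay within introns of all transcripts of their host and 49 overlapped an exon of at least 1 transcript.

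Levels in DMSO are set side by side without a test, because the lines were normalized apart. Among the 125 members in both lines, 79 had a level of at least 5 in either, of which 64 were higher in HL-60 and 15 in MOLM-13, with a median difference of 0.51. Across those 125 members, which share the libraries of a line, levels correlated with r = 0.946 and rho = 0.933. The order of members was therefore alike, with exceptions chosen here after their values were seen. SNORA57 was 7.38 in HL-60 and 4.22 in MOLM-13, SNORA80A 6.59 and 3.70, and SNORA54 7.16 and 4.43. SNORA72 went the other way, at 5.04 and 7.71. Its host RPL30, a large-subunit ribosomal protein gene, stood at 14.2 and 16.6 as means over all 9 samples of each line, treated ones included.

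The question in each line was which H/ACA snoRNAs moved with DAC. In HL-60, 22 of 131 members tested rose and 2 fell (limma, Benjamini-Hochberg adjusted p under 0.05 over all genes tested). The 22 were 16.8% of members, where 11.6% of all genes were called higher, and the 2 were 1.53%, where 12.6% of all genes were called lower. In either direction 24.2% of all genes were called, against 18.3% of members. Rises lay among the better measured members: 20 of the 78 with a level of at least 5 were called higher (25.6%), against 13.4% of all genes at such levels. The median member differed by 0.011 on the log2 scale, against 0.00064 over all genes tested. In 44 members the 3 DAC values lay above all 3 DMSO values, and in 6 below, where 19.3% and 19.2% of all genes did so.

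SNORA63, long known as E3 and housed in EIF4A2, had log2 values of 9.54, 9.54 and 9.50 in the HL-60 DMSO replicates and 9.96, 10.06 and 9.92 with DAC. All 3 DAC values lay above all 3 DMSO values, and SNORA63 rose by 0.45 (SE 0.069, limma adjusted p = 0.000307). SNORA68 was 7.62, 7.69 and 7.60 in DMSO and 8.03, 8.12 and 7.90 with DAC. The groups again did not overlap, and the rise was 0.38 (SE 0.071, limma adjusted p = 0.00164).

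The SNORA73 pair rose together. SNORA73B was 12.80, 12.85 and 12.78 in DMSO and 13.06, 13.24 and 13.02 with DAC, a rise of 0.30 (SE 0.062, limma adjusted p = 0.00317). SNORA73A was 13.53, 13.67 and 13.54 in DMSO and 13.82, 13.98 and 13.75 with DAC, a rise of 0.27 (SE 0.072, limma adjusted p = 0.0147). In both, DAC replicate 2 was the highest and no DAC value fell among the DMSO values. The SNORA73A call was lost without DMSO replicate 1, DMSO replicate 3 or DAC replicate 2 and without the mean-variance trend. Their host SNHG3 was not called with DAC (−0.046, limma adjusted p = 0.0926).

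SNORA57, in the citrate synthase methyltransferase gene CSKMT, was 7.44, 7.37 and 7.32 in DMSO and 7.66, 7.87 and 7.75 with DAC, a rise of 0.38 (SE 0.083, limma adjusted p = 0.00422). SNORA71A, in SNHG17, was 8.66, 8.69 and 8.68 in DMSO and 9.01, 9.05 and 8.88 with DAC, a rise of 0.30 (limma adjusted p = 0.0072). Neither overlapped between the groups. SNORA24 changed less: 10.40, 10.48 and 10.38 in DMSO against 10.52, 10.55 and 10.51 with DAC. That rise of 0.11 (limma adjusted p = 0.021) was lost without DMSO replicate 1, DMSO replicate 3 or DAC replicate 2. The calls of SNORA63, SNORA68, SNORA73B, SNORA57 and SNORA71A held in each of the 16 alternatives.

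EIF4A1, the paralogue of EIF4A2, holds a pair that moved apart in HL-60. SNORA48 was 8.93, 9.07 and 9.06 in DMSO and 9.37, 9.46 and 9.28 with DAC, a rise of 0.35 (SE 0.078, limma adjusted p = 0.00524) that held in all 16 alternatives. SNORA67 was 8.0, 7.99 and 8.0 in DMSO and 7.88, 7.91 and 7.87 with DAC, and fell by 0.11 (SE 0.035, limma adjusted p = 0.0366). Neither overlapped between the groups, although the SNORA67 call was lost in 8 of 16 alternatives. EIF4A1 itself fell by 0.14. The other fall was that of SNORA30, in the chromatin remodeller gene SRCAP, by 0.054 at a level of 4.17 (limma adjusted p = 0.0101).

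Other hosts with several members held called and uncalled members side by side. In EIF4A2, SNORA63B rose with DAC by 0.16 (limma adjusted p = 0.0133), while SNORA4 (0.11, adjusted p = 0.0713) and SNORA81 (0.072, adjusted p = 0.229) were above 0 and not called. In SNHG17, SNORA71A and SNORA71D (0.12) rose, and SNORA71B (0.02) and SNORA71C (0.07) were not called. None of the 6 members in TAF1D, all with HL-60 levels of 7.1 to 9.6, was called with DAC, and their differences ran from −0.10 (SNORA18) to 0.07 (SNORA32). Whether members of a host differ from each other was not tested. Among the members to be named whatever their values, SNORA53 rose by 0.095 (limma adjusted p = 0.049), and SNORA74A (0.11, adjusted p = 0.0687), SNORA74B, SNORA64, SNORA7A, SNORA7B, SNORA23 and SNORA31 were not called.

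The count of 24 called members rested on several libraries. It was 11 without DMSO replicate 1, 15 without DMSO replicate 2, 12 without DMSO replicate 3 and 10 without DAC replicate 2, and quantile normalization gave 10 higher and 5 lower.

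**Figure D2:**
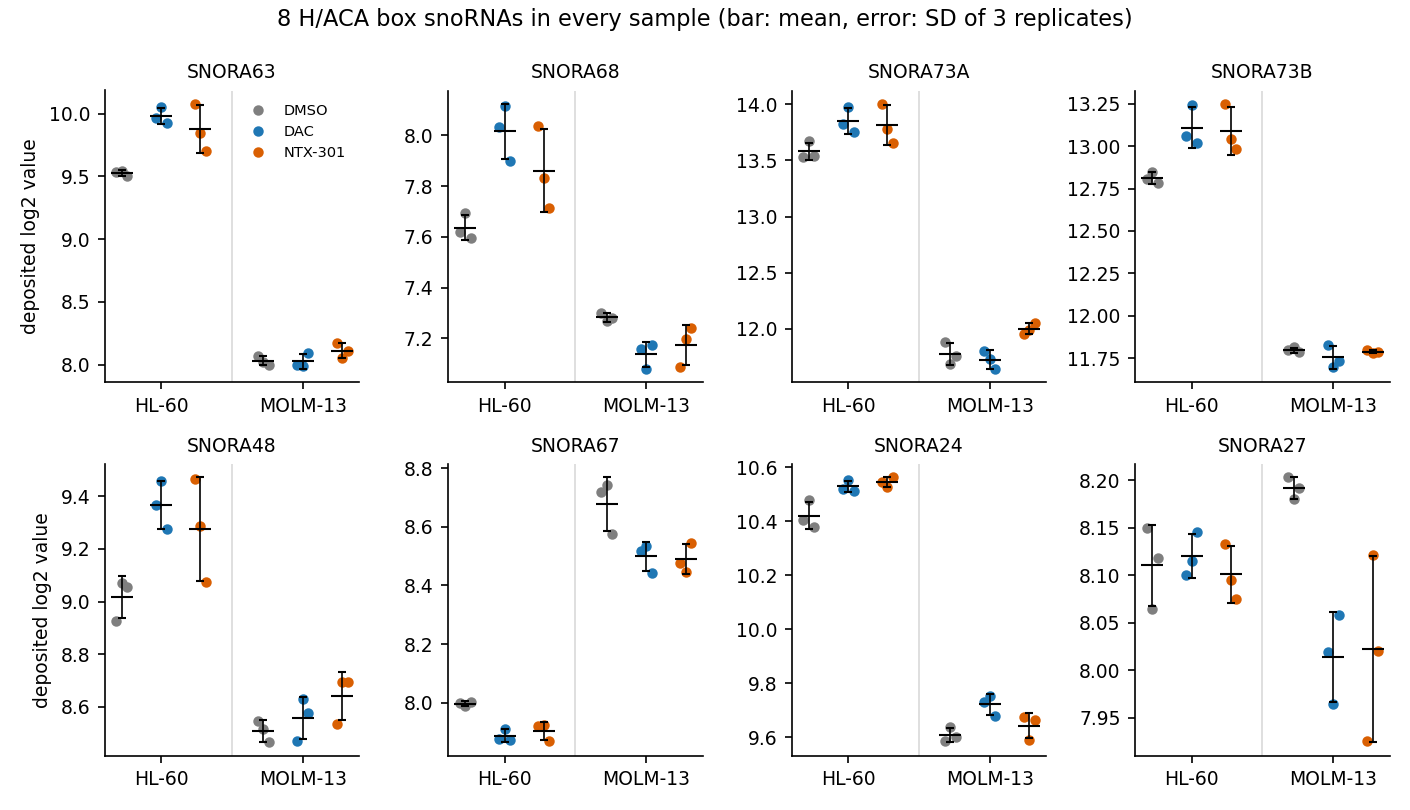
Log2 values of 8 members in each replicate of the 6 groups, with the group mean as a bar and the SD as an error line. In HL-60 the DAC values of SNORA63, SNORA68, SNORA73A, SNORA73B and SNORA48 lie above the DMSO values and those of SNORA67 below, while in MOLM-13 SNORA67 and SNORA27 lie lower with both drugs.

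With NTX-301 in HL-60, 18 of 131 members rose (13.7%, where 18.3% of all genes were called higher) and 1, SNORA30, fell (0.763%, where 19.2% were called lower). In either direction 37.4% of all genes were called, against 14.5% of members, so that the share of members with a rise was below that of all genes. In 25 members the 3 NTX-301 values lay above all DMSO values and in 9 below, where 23.3% and 24.0% of all genes did so. The DMSO samples are the same as in the comparison with DAC. Direction depended on scaling: centring each sample on its median gave 15 higher and 37 lower, 27 of the latter at levels under 5, and quantile normalization gave 6 higher and 15 lower.

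SNORA63 was 10.08, 9.85 and 9.70 in the NTX-301 replicates, all above the DMSO values, and rose by 0.35 (SE 0.069, limma adjusted p = 0.00105). SNORA73B was 13.25, 13.04 and 12.98, also above every DMSO value, a rise of 0.28 (SE 0.062, limma adjusted p = 0.00241). SNORA73A was 14.01, 13.78 and 13.66, and its replicate 3 fell below DMSO replicate 2, although the rise of 0.23 was called (limma adjusted p = 0.0195). That call was lost without DMSO replicate 1, DMSO replicate 3 or NTX-301 replicate 1 and without the trend. The host SNHG3 fell by 0.26.

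SNORA4, in EIF4A2, was 8.17, 8.26 and 8.14 in DMSO and 8.41, 8.32 and 8.37 with NTX-301, a rise of 0.18 without overlap (limma adjusted p = 0.00491). SNORA24 was 10.55, 10.53 and 10.56, above all DMSO values, a rise of 0.12 (limma adjusted p = 0.00555). SNORA50A, in the deadenylase scaffold gene CNOT1, rose by 0.12 at a level of 6.00 (limma adjusted p = 0.00369), and SNORA63B by 0.15 (adjusted p = 0.0108). SNORA79B, in CCNB1IP1, rose by 0.21 (limma adjusted p = 0.00956). SNORA25 was the single TAF1D member called (0.10, limma adjusted p = 0.0386).

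In SNORA68 (8.04, 7.83 and 7.72), SNORA57 (7.87, 7.64 and 7.45), SNORA48 (9.47, 9.29 and 9.07) and SNORA71A (9.09, 8.92 and 8.72), NTX-301 replicate 1 was the highest of its group and replicate 3 the lowest. Their rises were 0.22, 0.28, 0.26 and 0.24 (limma adjusted p = 0.0228, 0.0173, 0.0181 and 0.018), and each was lost without NTX-301 replicate 1, without at least 1 of the DMSO replicates, with quantile normalization and without the trend. SNORA67 was 7.92, 7.93 and 7.87, below every DMSO value, and was not called (−0.093, limma adjusted p = 0.0543). The count of 19 called members was 8 without NTX-301 replicate 1 and 10 without DMSO replicate 1.

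Small RNAs that are not cut from introns were looked at beside these rises, in a list of 5 added after the data were seen (RMRP, RPPH1, RN7SK, RN7SL1 and RN7SL2). With NTX-301 in HL-60 4 of the 5 rose, with a median of 0.11, among them RMRP (0.16, limma adjusted p = 0.000124) and RPPH1 (0.15, adjusted p = 0.000209). With DAC 2 of the 5 fell, RN7SK by 0.22 and RMRP by 0.11, and none rose. All 5 were called higher with NTX-301 than with DAC, where 15.4% of all genes were. In MOLM-13 none of the 5 was called in any comparison, with medians of −0.17 (DAC) and −0.021 (NTX-301) against DMSO. Their part in the rises of H/ACA members was not tested.

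The libraries of a group were not alike for these RNAs. Among the 46 HL-60 members with a level of at least 7, NTX-301 replicate 1 was the highest of its group in 29 and replicate 3 the lowest in 26, and DAC replicate 2 was the highest in 27. Their median deviation from the DMSO mean was 0.081, 0.099 and 0.051 in the DAC replicates and 0.071, 0.038 and 0.014 with NTX-301. The hosts deviated the other way, by −0.039 to −0.073 over the same 6 libraries. What sets these libraries apart was not tested.

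**Figure D3:**
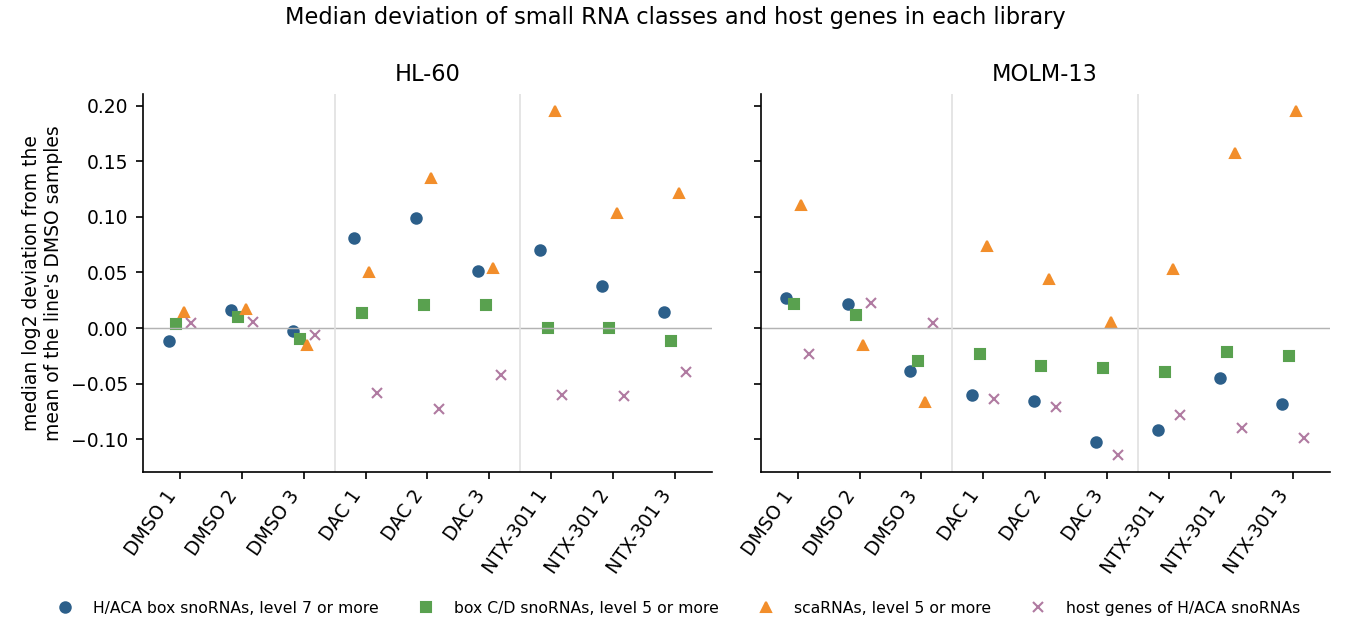
Median log2 deviation from the mean of the DMSO samples in each library, for H/ACA members with a level of at least 7, box C/D snoRNAs and small Cajal body RNAs with a level of at least 5, and the host genes of members. In HL-60 the H/ACA medians of treated libraries lie above 0 (0.014 to 0.099) and those of the hosts below, while in MOLM-13 both lie below 0.

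Compared directly with DAC in HL-60, NTX-301 left 2 members lower and none higher, where 30.4% of all genes differed (15.0% lower, 15.4% higher). They were SNORA70, in the ribosomal protein gene RPL10 (−0.16, limma adjusted p = 0.0358), and SNORA19, in the initiation factor gene EIF3A (−0.075, adjusted p = 0.0492). SNORA70 had risen with DAC by 0.18 (limma adjusted p = 0.0268). Centring gave 48 lower, 30 of them at levels under 5, and quantile normalization 1 higher and 8 lower. Leaving out any 1 of the 9 libraries moved the count to between 0 and 5.

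In MOLM-13 few members moved with DAC: 3 of 126 rose and 5 fell, 6.35% of members, where 36.6% of all genes were called (15.4% higher, 21.2% lower). SNORA67, which also fell in HL-60, was 8.72, 8.74 and 8.57 in DMSO and 8.52, 8.54 and 8.44 with DAC, a fall of 0.18 (SE 0.058, limma adjusted p = 0.0301) without overlap. SNORA27, in the ribosomal protein gene RPL21, was 8.20, 8.18 and 8.19 in DMSO and 8.02, 7.96 and 8.06 with DAC, a fall of 0.18 without overlap (limma adjusted p = 0.0313). SNORA62, known as E2 and housed in RPSA, a small-subunit ribosomal protein gene, fell by 0.16 (limma adjusted p = 0.0433). The SNORA67 call was lost without DMSO replicate 1, DMSO replicate 2 or DAC replicate 3, and those of SNORA27 and SNORA62 without DMSO replicate 1, DMSO replicate 2, DAC replicate 1 or DAC replicate 2, among others.

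SNORA24 rose in MOLM-13 as it did in HL-60: it was 9.58, 9.64 and 9.60 in DMSO and 9.73, 9.75 and 9.68 with DAC, a rise of 0.11 without overlap (limma adjusted p = 0.049). This call was lost in 13 of 16 alternatives. The other 4 calls lay at levels under 5: SNORA112 (0.039) and SNORA11B (0.048) rose, and SNORA22B (−0.070) and SNORA38B (−0.048) fell. SNORA63 (8.07, 8.02 and 8.0 in DMSO, 8.0, 7.99 and 8.10 with DAC) was not called, and its groups overlapped. Nor was SNORA68, at 7.30, 7.27 and 7.28 in DMSO and 7.16, 7.08 and 7.17 with DAC (−0.15, limma adjusted p = 0.0545), although its groups did not overlap.

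The MOLM-13 count with DAC was 2 without DMSO replicate 1, DMSO replicate 2, DAC replicate 2 or DAC replicate 3. DAC replicate 3 was the lowest library for the 5 small RNAs not cut from introns, such as RN7SL1 (20.60 and 20.47 in the other DAC replicates, 19.95 in replicate 3). Centring gave 0 higher and 29 lower, 17 of the latter at levels under 5. Quantile normalization gave 0 and 24, 2 of the latter under 5, so the balance depended on the scaling.

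With NTX-301 in MOLM-13, 6 members rose and 6 fell, 9.52% of 126, where 45.1% of all genes were called (20.3% higher, 24.8% lower). SNORA73A was 11.88, 11.68 and 11.76 in DMSO and 11.95, 11.99 and 12.05 with NTX-301, a rise of 0.22 without overlap (SE 0.051, limma adjusted p = 0.00393). Its near copy SNORA73B was 11.80, 11.81 and 11.79 in DMSO and 11.80, 11.78 and 11.79 with NTX-301, and was not called (−0.0089, limma adjusted p = 0.846). The difference between these copies was not tested, and the split of reads between them is uncertain.

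SNORA67 was 8.48, 8.44 and 8.55 with NTX-301, below all DMSO values, and fell by 0.19 (limma adjusted p = 0.0193). SNORA27 was 7.92, 8.12 and 8.02, likewise below, and fell by 0.17 (limma adjusted p = 0.032). SNORA44, in the noncoding host SNHG12, fell by 0.14 (limma adjusted p = 0.0139), SNORA64, in RPS2, by 0.16 (adjusted p = 0.0458), and SNORA3B, in RPL27A, by 0.13 (adjusted p = 0.0474). RPS2 and RPL27A encode ribosomal proteins. The SNORA44 call was lost without DMSO replicate 1, and those of SNORA64 and SNORA3B without replicate 1 or 2 of DMSO or of NTX-301, among others. The rises besides SNORA73A lay at levels under 5, among them SNORA70B (0.064), SNORA57 (0.059) and SNORA49 (0.076).

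The count of 12 was 4 without DMSO replicate 1, 5 without DMSO replicate 2 and 7 without NTX-301 replicate 2. Centring gave 1 higher and 34 lower, 16 of the latter at levels under 5. Quantile normalization gave 1 and 29, 2 of the latter under 5. Compared directly with DAC, NTX-301 left 1 member higher, SNORA73A (0.27, SE 0.051, limma adjusted p = 0.00988), where 7.42% of all genes differed (3.01% higher, 4.41% lower). Its DAC values, 11.80, 11.73 and 11.64, lay below all 3 with NTX-301. That call was lost without NTX-301 replicate 3, and 2 members were called without NTX-301 replicate 1.

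The members called in both lines with DAC were SNORA24 (0.11, in HL-60 as in MOLM-13) and SNORA67 (−0.11 and −0.18). With NTX-301 they were SNORA73A (0.23 and 0.22), SNORA57 (0.28 and 0.059) and SNORA49, in EP400 (0.17 and 0.076). These 5 moved the same way in both lines. The share of all genes called in both lines was not computed, so no excess or lack of members is read from this count. In MOLM-13, SNORA57 and SNORA49 stood low, at 4.22 and 4.66 in DMSO. The calls of SNORA24 in MOLM-13 and SNORA67 in HL-60 were lost in many alternatives, as given above.

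A fit of all 18 samples tested whether a drug's effect differed between the lines. The effect of DAC differed in 20 of 116 members, 18 of them lower in MOLM-13, where 30.0% of all genes differed (17.9% lower, 12.1% higher). SNORA68 had the lowest adjusted p: its log2 difference from DMSO was 0.38 in HL-60 but −0.15 in MOLM-13, which differ by −0.52 (SE 0.095, limma adjusted p = 0.00036). SNORA63 stood 0.45 above DMSO in HL-60 and at −0.0034 in MOLM-13 (difference −0.46, SE 0.094, limma adjusted p = 0.0011), and SNORA73B at 0.30 and −0.043 (−0.34, adjusted p = 0.00302). SNORA57 differed by −0.38 (limma adjusted p = 0.00679), and SNORA30, at a low level, by 0.093 (adjusted p = 0.00281). SNORA48 (−0.30, limma adjusted p = 0.0446), SNORA71A (−0.29, adjusted p = 0.026) and SNORA73A (−0.32, adjusted p = 0.0232) were among the others.

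The effect of NTX-301 differed in 10 of 116 members, 8 of them lower in MOLM-13, where 40.0% of all genes differed (22.4% lower, 17.6% higher). SNORA73B stood at 0.28 in HL-60, against −0.0089 in MOLM-13 (difference −0.29, SE 0.079, limma adjusted p = 0.00704), and SNORA68 at 0.22 and −0.11 (−0.33, adjusted p = 0.00929). SNORA3B (−0.19, limma adjusted p = 0.013), SNORA72 (−0.14, adjusted p = 0.0192) and SNORA74A (−0.20, adjusted p = 0.0228) followed. The DAC count was 9 without HL-60 DMSO replicate 1 or HL-60 DAC replicate 2, 11 without HL-60 DMSO replicate 3 or MOLM-13 DMSO replicate 1, and 12 without MOLM-13 DMSO replicate 2. The NTX-301 count was 5 without MOLM-13 DMSO replicate 1, and quantile normalization gave 1 higher and 19 lower.

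**Figure D4:**
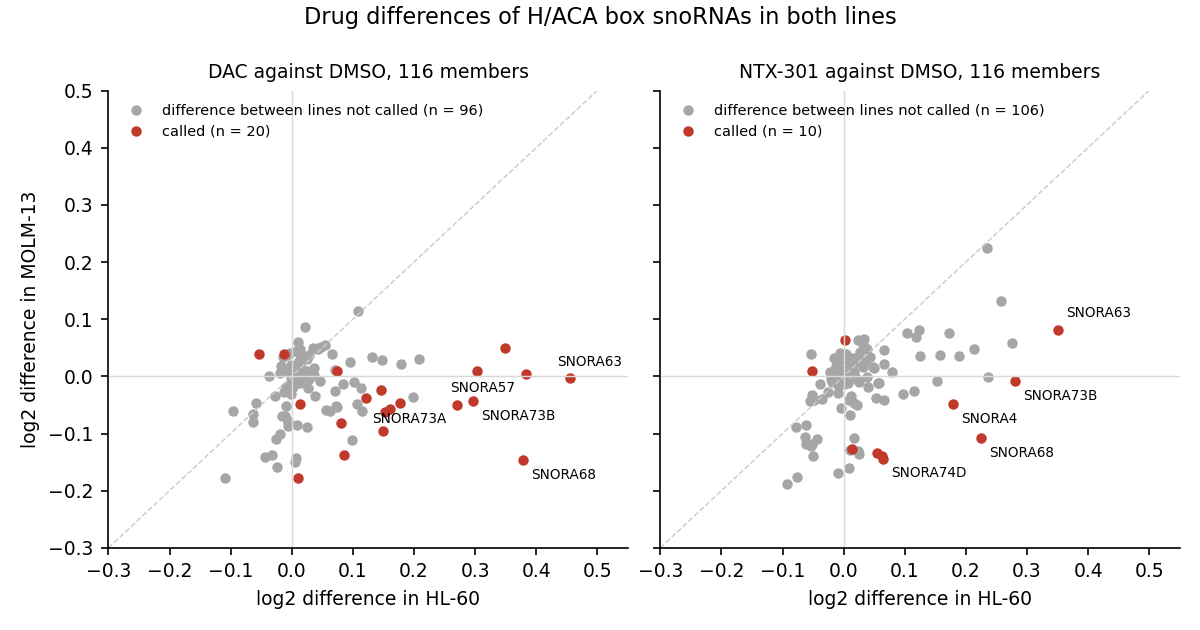
Log2 difference of each of 116 members against DMSO in HL-60 (horizontal) and MOLM-13 (vertical), for DAC and NTX-301, with the members whose effect differed between lines in colour. With DAC, SNORA68 and SNORA63 lie farthest to the right and near or below 0 on the vertical axis, and with NTX-301 SNORA73A lies near 0.2 on both axes.

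Most host genes that were called fell. In HL-60 with DAC 36 of 82 hosts fell and 2 rose (43.9% and 2.44%, against 12.6% and 11.6% of all genes), and with NTX-301 33 fell and 6 rose (40.2% and 7.32%, against 19.2% and 18.3%). In MOLM-13 35 of 79 hosts fell and 5 rose with DAC (44.3% and 6.33%, against 21.2% and 15.4%), and 37 fell and 7 rose with NTX-301 (46.8% and 8.86%, against 24.8% and 20.3%). All but 3 hosts in HL-60 and 2 in MOLM-13 had levels of at least 7, where 18.1% and 27.3% (HL-60) and 30.2% and 35.3% (MOLM-13) of all genes were called lower with DAC and NTX-301. Between 5 and 11 the share of all genes called lower was smaller, at 9.80% and 13.6% (HL-60) and 9.77% and 12.8% (MOLM-13). That range held 12 hosts of HL-60 and 11 of MOLM-13, and most hosts stood at 11 or more. Shares of all genes at 11 or more were not computed, but the counts show that most falls lay there. In MOLM-13, 3677 of 14625 genes at 5 or more fell with DAC, and 803 of the 8218 between 5 and 11. With NTX-301 these counts were 4311 and 1050. In HL-60 they were 2123 and 789 (DAC) and 3215 and 1093 (NTX-301). Hosts were thus not set against genes of like level, and no excess of falls among hosts is read from these shares. Of the 22 members that rose with DAC in HL-60, 20 had a host listed, in 17 genes: seen from these members the host fell in 9, was not called in 11 and rose in 0. For the 18 that rose with NTX-301, in 14 host genes, the host fell in 7, was not called in 7 and rose in 4. EIF4A2 fell with both drugs (−0.14 and −0.16, DAC first). CSKMT was not called with either (0.0055 and −0.078). SNHG17 was not called with DAC (0.00075) and fell with NTX-301 (−0.12). SNHG8 fell with DAC (−0.097) and rose with NTX-301 (0.075), although its SNORA24 rose with both.

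Members and hosts are different amounts of RNA, so the comparison was also made within each library, as the log2 value of the member minus that of its host. The fit covered all nested gene pairs of the tables, 1456 in HL-60 and 1368 in MOLM-13, with adjustment over all of them. In HL-60 the member-to-host ratio rose with DAC in 42 of 111 pairs and fell in 1, where 26.3% of all nested pairs were called (18.7% higher, 7.62% lower). With NTX-301 it rose in 32 and fell in 6 (of all pairs 32.3%, 21.6% higher and 10.7% lower). At member levels of at least 5 it rose with DAC in 32 of 73 and fell in 0, where 22.7% of nested pairs at such levels were called, and with NTX-301 rose in 25 and fell in 3 (25.4%). In MOLM-13 it rose in 35 and fell in 4 of 110 with DAC (of all pairs 33.1%, 24.3% higher and 8.85% lower). With NTX-301 it rose in 43 and fell in 8 (of all pairs 46.4%, 33.6% higher and 12.8% lower), so that with NTX-301 in HL-60 and with both drugs in MOLM-13 the shares in either direction were near those of all nested pairs. At levels of at least 5 the MOLM-13 ratio rose in 17 and fell in 3 of 63 with DAC (28.0% of such pairs called) and rose in 20 and fell in 6 with NTX-301 (42.3%). The other MOLM-13 rises, 18 with DAC and 23 with NTX-301, were of members under 5.

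In HL-60, SNORA63 rose against EIF4A2 by 0.60 (DAC, limma adjusted p = 0.00397) and 0.51 (NTX-301). SNORA73B rose against SNHG3 by 0.54 with NTX-301 (limma adjusted p = 0.0021). SNORA48 rose against EIF4A1 in both lines, by 0.49 (HL-60) and 0.30 (MOLM-13) with DAC and by 0.37 and 0.41 with NTX-301. SNORA67 in the same host was not called against it (0.029, limma adjusted p = 0.612, with DAC in HL-60), where member and host both fell. A ratio can also be called without any movement of the member. SNORA36A and SNORA56, at the floor in MOLM-13, each gave ratio changes of 0.21 with DAC and 0.24 with NTX-301, which mirror the falls of DKC1, their host. Counts at levels under 5 are therefore to be read with the host's own change. The HL-60 count of 43 with DAC was 25, 23 and 25 without DMSO replicate 1, 2 and 3, 26 without DAC replicate 1 and 18 without DAC replicate 2, and the MOLM-13 count of 39 was 21 without DMSO replicate 2.

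Across members with a level of at least 5, the change of a member and that of its host showed little relation. In HL-60 r was 0.15 with DAC and −0.12 with NTX-301 over 73 members in 50 hosts, which share libraries and in part hosts. In MOLM-13 it was −0.025 and −0.24 over 63 members in 41 hosts. By place, of the 22 members that rose with DAC in HL-60, 10 lay within introns of all host transcripts and 10 overlapped an exon of some transcript, with 2 others. Among the members of either line with a listed host, 66 and 49 lay so. The share of reads that came from unspliced or exon-bearing host RNA was not tested.

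**Figure D5:**
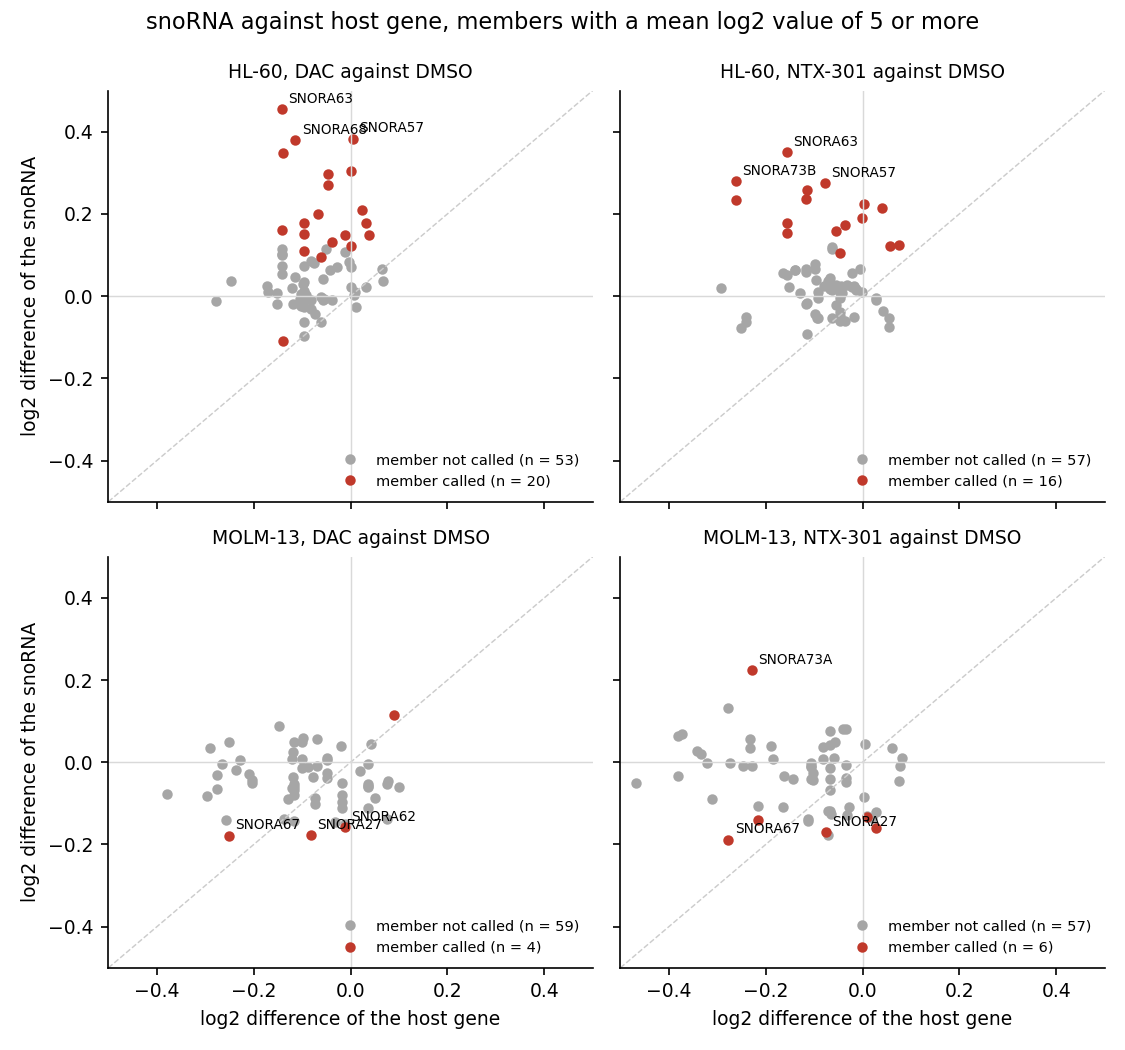
Log2 difference against DMSO of each member with a level of at least 5 (vertical) and of its host gene (horizontal), in 4 panels by line and drug, with members called by limma in red. In HL-60 the called members (20 of 73 with DAC and 16 of 73 with NTX-301) lie mostly above 0 while most hosts lie at or below 0, and in MOLM-13 4 and 6 of 63 members are called.

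Other snoRNA classes give a scale for these counts. Of the box C/D snoRNAs, which guide ribose methylation, 13 of 202 rose with DAC in HL-60 and 2 fell, and 11 rose and 6 fell with NTX-301. In MOLM-13 1 of 214 rose and 6 fell with DAC, and 13 rose and 19 fell with NTX-301. Small Cajal body RNAs, which guide changes in spliceosomal RNA and in part carry H/ACA boxes, rose in 4 and fell in 1 of 26 with DAC in HL-60 and rose in 7 with NTX-301. In MOLM-13 1 of 27 rose with DAC and 7 with NTX-301, and none fell. The shares of all genes are those given above for each comparison. Between levels of 5 and 11, DAC in HL-60 was followed by calls higher in 23.7% of 76 H/ACA members, 4.17% of 120 box C/D snoRNAs, 36.4% of 11 small Cajal body RNAs and 12.7% of all genes. With NTX-301 in HL-60 the shares in that range were 18.4%, 0.833%, 45.5% and 22.5%, so that H/ACA members lay below all genes. In MOLM-13 the H/ACA shares in that range were 1.54% (DAC) and 0.00% (NTX-301), where 21.0% and 27.6% of all genes were called higher. The differences between classes were not tested.

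On the protein side of the H/ACA particle, called genes were lower. Of 14 genes for particle proteins and assembly factors, 5 fell with DAC in HL-60 and 9 were not called, and 8 fell with NTX-301, where 12.6% and 19.2% of all genes were called lower. In MOLM-13 12 and 13 fell, where 21.2% and 24.8% of all genes did, or 30.2% and 35.3% of those with a level of at least 7. None of the 14 rose against DMSO, and the difference between lines was not tested for the list. Their median differences were −0.042 and −0.086 (HL-60) and −0.20 and −0.23 (MOLM-13), against medians over all genes within 0.0034 of 0. Over genes with a level of at least 7 the medians were −0.012 with either drug (HL-60) and −0.027 and −0.033 (MOLM-13). DKC1, the catalytic subunit, fell in HL-60 by 0.083 (limma adjusted p = 0.00838) with DAC and by 0.14 (adjusted p = 7.59e-05) with NTX-301. Its falls in the other line were 0.21 (limma adjusted p = 2.42e-05) and 0.24 (adjusted p = 4.87e-06). NHP2 fell with both drugs (HL-60 −0.15 and −0.13, MOLM-13 −0.30 and −0.37), and so did NOP10 (−0.13 and −0.091, −0.27 and −0.32). GAR1 was not called in HL-60 (0.051 and −0.086) and fell in MOLM-13 (−0.25 and −0.21). Of the assembly factors, SHQ1, a chaperone of dyskerin, was not called with DAC in HL-60 (−0.0062), fell with NTX-301 (−0.23), and fell in MOLM-13 (−0.35 and −0.38). NAF1, which precedes GAR1 on the particle, fell with NTX-301 in HL-60 (−0.17) and was not called in the other 3 comparisons.

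Neighbouring steps were read from lists of the same kind, to be set against 12.6% (DAC) and 19.2% (NTX-301) of all genes called lower in HL-60. The shares for MOLM-13 were 21.2% and 24.8%. Among genes with a level of at least 7 these 4 shares were 18.1%, 27.3%, 30.2% and 35.3%. Neither these lists nor the particle genes were set against genes of like level. The 4 box C/D core proteins fell in 3 and 2 cases in HL-60, where FBL, the methyltransferase, rose with DAC (0.10), and all 4 fell with either drug in MOLM-13. Of 12 pseudouridine synthases that need no guide RNA, 4 fell with DAC and 10 with NTX-301 in HL-60, then 7 and 11 in the other line, among them PUS7 (−0.09, −0.17, −0.21 and −0.33) and TRUB2 (−0.10, −0.25, −0.22 and −0.29). Of 22 genes for intron release, trimming and decay, 7 and 9 fell in HL-60, then 17 and 19 in the other line. The exosome subunit EXOSC6 fell in HL-60 (−0.12, −0.19), and EXOSC9 fell in MOLM-13 (−0.24, −0.33). Of these 22 genes 0 rose with DAC and 1 with NTX-301 in each line.

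Telomerase RNA (TERC) carries an H/ACA domain bound by the same proteins. In HL-60, DAC raised TERC by 0.28 (SE 0.056, limma adjusted p = 0.00247) and NTX-301 raised it by 0.35. In MOLM-13, the rise with DAC was 0.29 (SE 0.064, limma adjusted p = 0.00421). With NTX-301 in MOLM-13 TERC was not called (0.13, limma adjusted p = 0.136). TERT, the protein partner that copies the TERC template, fell in all 4 comparisons (−0.38 and −0.22 in HL-60, −0.26 and −0.21 in MOLM-13).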

How the data were processed

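Total RNA of 18 samples was sequenced with a stranded library kit, per the labels' protocols. Per the submitters' processing notes, FastQC, Trimmomatic 0.38, HISAT2, StringTie and hg19 were used; how genes were counted and normalized is not given in the sources used here. The authors deposited 1 log2 value per gene and sample, a unit read from the values, with no depth and no coordinates.

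Members, lists and tests were chosen with earlier results of these data known. A gene was tested where 3 or more samples had a linear value of 1 or more, using limma 3.58.1 (R 4.3.3; lmFit, eBayes with a trend, two-sided). A line's 9 samples entered 1 fit with 6 residual degrees of freedom, with Benjamini-Hochberg adjustment across all genes tested and a threshold of 0.05. The between-line test used all 18 samples (12 residual degrees of freedom). Low values vary little between samples in the deposited tables, so differences there may be compressed. The transform behind them is not given. Hosts came from the RefSeq GRCh38.p14 gene table, sequences and exons from GENCODE v29, and folds from RNAfold 2.7.2.

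Named members were, per comparison, at most 8 called with the lowest adjusted p, the 3 highest and 3 lowest per line, those called in both lines, at most 5 per drug that differed between lines, and 12 chosen by name, with their hosts; in the lists, those with the lowest adjusted p, and 6 particle genes. Others are named to complete a host or a count, after their values were seen. Alternatives were centring, quantile normalization, no filter, a level of at least 5, no trend, only the groups compared, the replicate block and leaving out each replicate. 1 host gene and 1 sequence are not reported here.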

Additional observations from a re-analysis of the deposited data

Results flagged for a closer look

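The effect of a drug differed between HL-60 and MOLM-13 by a test of the difference itself (limma over all 18 samples, signed as MOLM-13 less HL-60) in 20 members for DAC and in 10 for NTX-301. For DAC the 5 with the lowest adjusted p were SNORA68 (−0.52), SNORA63 (−0.46), SNORA30 (0.093), SNORA73B (−0.34) and SNORA57 (−0.38). For NTX-301 they were SNORA73B (−0.29), SNORA68 (−0.33), SNORA3B (−0.19), SNORA72 (−0.14) and SNORA74A (−0.20). SNORA57 was at 7.38 in DMSO in HL-60 (SD 0.064) and at 4.22 in MOLM-13 (SD 0.012), where its values may be more compressed. Line, stated dose and separate normalization cannot be told apart in these differences.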

How the results depend on the processing

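Of 213 results for named members, 118 kept their call in every alternative run and 3 reversed: SNORA7A, not called as reported, was −0.031 after centring with NTX-301 in HL-60, and −0.037 with DAC and −0.029 with NTX-301 in MOLM-13. SNORA7A stood at 0.29 in HL-60 and at the floor (0.00015) in MOLM-13 in DMSO. Centring shifted the median of all genes by −0.032, −0.037 and −0.03 in these 3 comparisons, near the SNORA7A values. The reversals are therefore no sign of a change in this RNA. Centring moved the count of called members to 52 (NTX-301, HL-60), 48 (NTX-301 against DAC, HL-60), 29 (DAC, MOLM-13) and 35 (NTX-301, MOLM-13). Quantile normalization moved it to 15 (DAC, HL-60), 9 (NTX-301 against DAC, HL-60), 24 and 30 (MOLM-13, DAC and then NTX-301) and 20 (NTX-301 between lines). These scalings shifted the median of all genes by at most 0.037. The 2 calls between drugs in HL-60 became 1 without a filter, 4 at levels of at least 5 and 0 with only those groups fitted. The 8 with DAC in MOLM-13 became 13 without the trend. Ratios tested only at levels of at least 5 gave 24 (DAC) and 25 (NTX-301) calls in HL-60, and 13 and 21 for MOLM-13, with fewer pairs tested. The cause of the other moves was not tested. Leaving out 1 replicate gave 10 to 23 calls (DAC, HL-60), 8 to 25 (NTX-301), 0 to 5 (NTX-301 against DAC), 2 to 8 (DAC, MOLM-13), 4 to 12 (NTX-301), 0 to 2 (NTX-301 against DAC), 9 to 23 and 5 to 14 (between lines, DAC and NTX-301), and for ratios 18 to 44 and 31 to 42 (HL-60) and 21 to 40 and 38 to 50 (MOLM-13). Residuals gave no sign of pairing by replicate number. Those of same-numbered samples correlated at −0.059 to 0.121 in HL-60 and at −0.163 to 0.113 in MOLM-13. For differently numbered samples the ranges were −0.119 to 0.110 and −0.123 to 0.162. Whether same-numbered samples were handled together cannot be read from this. With the replicate block the counts were 20, 19 and 2 in HL-60 (DAC, NTX-301, and between drugs), 5, 7 and 1 in MOLM-13, 18 and 11 between lines, and 37, 41, 32 and 42 for ratios. Depth is unknown, so whether a low member without a call changed cannot be said.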
